A study of Drosophila melanogaster with 150 samples.

Results

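The genes described here are 10 genes of late spermatogenesis in Drosophila melanogaster, namely Mst84Da, Mst84Db, Mst84Dc, Mst84Dd, Mst87F, Mst98Ca, Mst98Cb, dj, janB and ocn. They were chosen by gene symbol. Each of the 10 symbols had exactly 1 probe set among the 18769 probe sets analysed, and all of the genes lie on chromosome arm 3R. The array names 11981 genes in all by a single symbol. In the spermatogenesis of flies, genes of this kind are transcribed in primary spermatocytes under the meiotic arrest genes, which encode testis-specific transcription factors. Their messages are stored, and the proteins are made after meiosis, when the spermatid elongates and builds its tail. In whole males these messages come from the germ cells of the testis.

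RNA was measured in whole adult males of 75 recombinant inbred lines, called roo lines, with a pool of males from a single vial on each of 150 Affymetrix arrays. For the 75 arrays labelled control, the cornmeal, agar, sugar and yeast food held 250 uM sodium acetate. For the 75 arrays labelled lead, the same food held 250 uM lead acetate. Per the labels, 20 males and 20 females of a line laid for 3 days at 25 degrees C on 10 ml of food, 65 male progeny aged 5 to 10 days were frozen, and 50 mg of flies were extracted. There is thus 1 array per line and diet, and the inbred line is the unit of replication.

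The range of the values points to log2 signals, and every difference below is given on that scale. Array medians lay between 5.29 and 5.55. The mean of 12 yolk and eggshell genes, which mark females, had a median of 3.89 over the arrays, and it reached 10.25 on the highest. The males' own genes of the accessory gland and of the ejaculatory duct and bulb were high. Their means over 11 and 3 genes had medians of 11.20 and 12.64. The difference between the 3' and 5' Actin control probe sets, a sign of RNA quality, had a median of 1.40 and ran from 0.49 to 2.90. No dates or other batch labels were given in the sources used here.

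The Mst genes encode small proteins rich in cysteine, glycine and proline repeats that are built into the sperm tail. Among the copies that lie side by side in the Mst84D cluster, Mst84Da had a lowest signal of 10.53, a median of 11.80 and a highest signal of 12.48 over the 150 arrays. Mst84Db ran from 10.17 over a median of 11.47 to 12.16. Their SDs were 0.30 and 0.34 (n = 150), at percentiles 70.6 and 79.5 of the SDs of all probe sets. Mst84Dc ran from 10.17 over 11.57 to 12.23, and Mst84Dd from 9.16 over 10.64 to 11.57. The related gene Mst87F ran from 10.31 over 11.62 to 12.38. These copies have similar sequences, and whether the probes of one copy also caught the messages of another was not tested.

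The pair of neighbouring genes Mst98Ca and Mst98Cb encodes larger sperm tail proteins of the same kind. Mst98Ca had the smallest SD of the 10 genes, 0.26, and ran from 11.04 over a median of 12.08 to 12.67. Mst98Cb ran from 9.05 over 10.12 to 10.80, with an SD of 0.31. The same array, labelled line 3 lead, was the lowest of all 150 in each of the 7 Mst genes.

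The gene dj, don juan, encodes a protein of elongating spermatids and of the sperm tail. Its signal ran from 6.10 over a median of 7.08 to 8.06, with an SD of 0.36. The genes janB and ocn are neighbours in a tandem cluster with janA, the janus family, and are expressed in the testis. The signal of janB ran from 3.88 over a median of 10.47 to 11.32, and that of ocn from 10.04 over 11.01 to 11.87. The SD of janB was 0.81 and that of ocn 0.38, against a median SD of 0.219 over all probe sets. Signals of different probe sets are not set against each other, since probes differ in how strongly they bind.

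**Figure D1:**
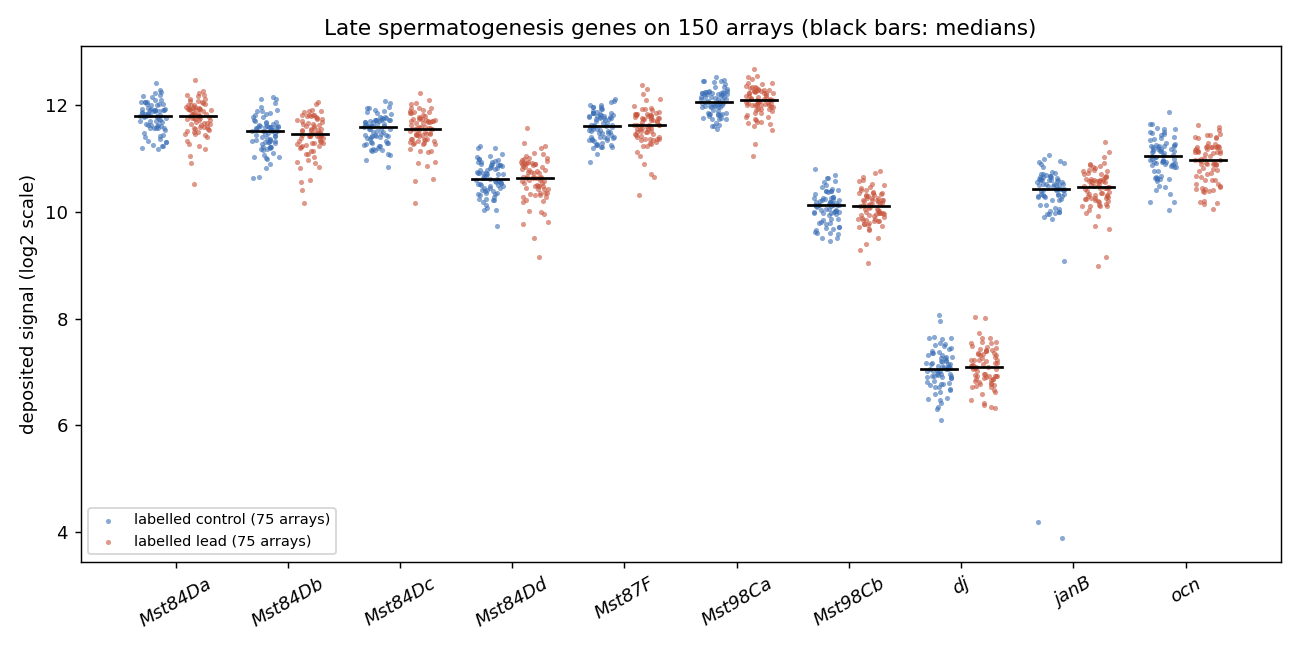
Deposited signal on the log2 scale (vertical axis) of the 10 genes (horizontal axis), with 1 point per array and black bars at the medians of the 75 arrays labelled control (blue) and the 75 labelled lead (red). Levels are not comparable between genes. The groups overlap in every gene, and 2 points of janB labelled control, at 3.88 and 4.19, lie far below the rest.

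The first comparison was between the labelled diets. None of the 10 genes passed the test between the arrays labelled lead and those labelled control. In limma with line as a block, 0 of the 10 genes passed an adjusted p under 0.05, against a background of 0% of 18769 probe sets. Before adjustment 490 probe sets and 0 of the 10 genes had a p under 0.05. The median difference over the 10 genes was -0.01, and over all probe sets it was 0.0020.

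The gene nearest to a difference was ocn. Among control arrays ocn ran from 10.04 over a median of 11.06 to 11.87, and among lead arrays from 10.06 over 10.97 to 11.62. The ranges overlapped almost entirely. The fitted difference, lead minus control, was -0.10 ± 0.059 (SE, 75 lines). Its 95% interval reached from -0.22 to 0.01, and limma's adjusted p was 1.00. The lead array was the higher one in 33 of 75 lines.

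At the other end stood janB, whose median was 10.44 among the control arrays and 10.47 among the lead arrays. Its lowest signals were 3.88 and 8.98 and its highest 11.08 and 11.32. The fitted difference was 0.17 ± 0.13 (SE, 75 lines), with an interval from -0.088 to 0.42. Without lines 58 and 15, whose control arrays are described below, it was -0.000532, with an interval from -0.11 to 0.11. The other 8 genes had differences between -0.05 and 0.03, and the bounds of their 95% intervals lay between -0.15 for Mst84Db and 0.15 for dj.

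The next question was whether a line kept its level on both diets. The line effect, a moderated F-test in limma, was called in 0 of the 10 genes, against a background of 0.0107%. Before adjustment 2317 probe sets and 0 of the 10 genes had a p under 0.05. The F values of the 10 genes lay between 0.94 and 1.29, around a median of 1.09, and the median over all probe sets was 1.12. The adjusted p values ran from 0.502 for Mst84Db to 0.799 for Mst87F.

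Control and lead signals of a line were not detectably related in any of the 10 genes. Over the 75 lines the Pearson correlation between them ran from -0.042 for Mst87F to 0.11 for Mst84Db, with permutation p values from 0.326 to 0.934, and Spearman's rho ran from -0.083 to 0.056, with permutation p values from 0.477 to 0.994. All 10 relations had an adjusted p of 0.896 or above in both measures. Without the 2 lines farthest from the control median, Pearson's r lay between -0.025 and 0.15.

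A further comparison was of the spread between lines on either diet. By the Pitman-Morgan test, janB was the 1 gene of the 10 that was called, its spread being narrower on the arrays labelled lead, against a background of 1.16% of probe sets called in either direction. The SD of janB was 1.09 among the control arrays and 0.38 among the lead arrays (n = 75 each), a log2 variance ratio of -3.06 with an adjusted p of 1.02e-13. Without lines 58 and 15 the ratio was 0.51, with an adjusted p of 0.595, so the call rested on the control arrays of these lines. In the rank form of the test janB had a correlation of 0.034 and an adjusted p of 0.976.

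Among the Mst genes the largest ratios were on the side of a wider spread on the arrays labelled lead, and none was called. The log2 variance ratio was 0.86 for Mst84Dc, with SDs of 0.26 and 0.35, and 0.79 for both Mst84Dd and Mst87F. Their unadjusted p values lay between 0.0115 and 0.0209 and their adjusted p values between 0.277 and 0.339. Without line 3, whose lead array was the lowest in the Mst genes, the largest ratio of any of the 10 genes was 0.56.

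The 10 genes rose and fell together over the arrays, with ocn the least tied to the rest. Over the 45 pairs of genes Spearman's rho had a median of 0.81 and ran from 0.11 to 0.92. After adjustment over the 45 pairs, 44 rho values and 43 Pearson correlations had a permutation p under 0.05. All pairs share the same arrays and their normalization. The 21 pairs of Mst genes had rho between 0.70 and 0.92, with a median of 0.85.

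The closest pair was Mst84Dc and Mst84Dd, with r = 0.94 and rho = 0.92. The permutation p was 1e-05 for both, the smallest that the resamples can give, and r was 0.93 without the 2 arrays farthest from the median of Mst84Dc. Mst84Dc with Mst87F and Mst98Ca with Mst98Cb also reached a rho of 0.92. Mst87F lies apart from the Mst84D cluster on the arm, and Mst98Ca lies beside Mst98Cb. Within the cluster Mst84Db was the least tied to the other copies, with rho between 0.82 and 0.86, and its rho with dj was 0.54.

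**Figure D2:**
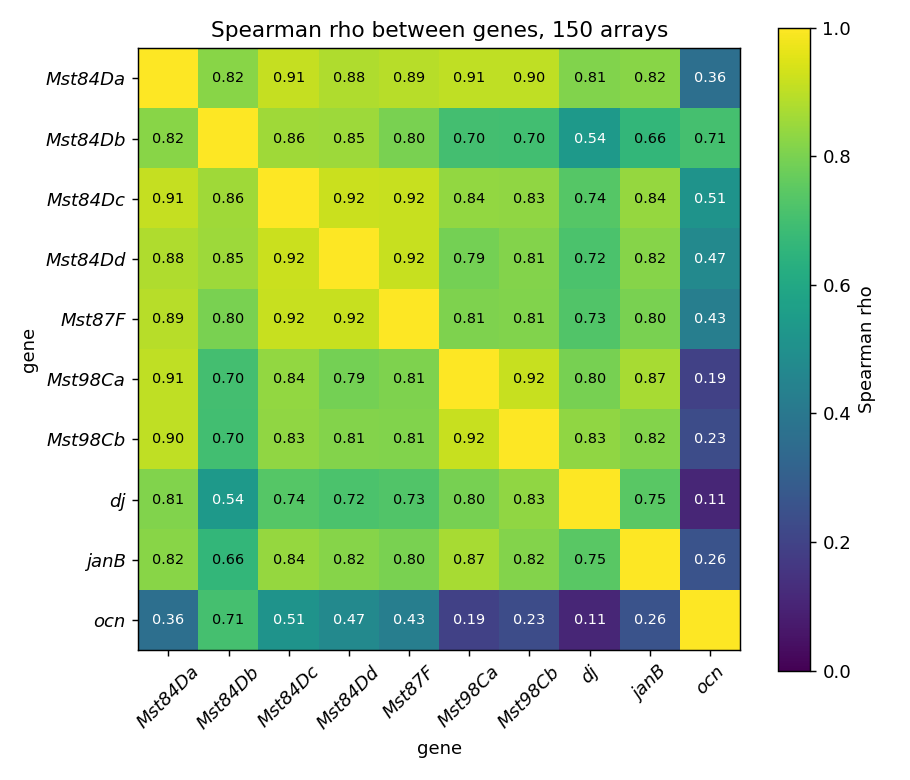
Spearman's rho between each pair of the 10 genes (both axes) over the 150 arrays, coloured from 0 to 1 with the value in each cell. The square of Mst genes, dj and janB is at 0.54 or above throughout, while the row of ocn runs from 0.11 with dj to 0.71 with Mst84Db.

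For janB the Pearson and rank correlations were far apart. With the 8 genes other than ocn, Spearman's rho of janB lay between 0.66 and 0.87, with a permutation p of 1e-05, the smallest that the resamples can give. Pearson's r of the same pairs was only 0.27 to 0.39. Without the 2 arrays farthest from the median of janB, Pearson's r was 0.65 to 0.81. On the remaining arrays janB thus rose and fell with these genes, Mst98Ca most closely.

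The neighbouring relatives janB and ocn varied together only weakly. The pair of janB and ocn had r = 0.12 (permutation p = 0.159, adjusted 0.162) and rho = 0.26 (permutation p = 0.00171, adjusted 0.00183). Without the 2 arrays farthest from the median of janB, r was 0.29. With dj the rho of ocn was 0.11 (permutation p = 0.190, adjusted p = 0.190), and with Mst98Ca it was 0.19.

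The gene that ocn followed most closely was Mst84Db, with r = 0.74 and rho = 0.71 (permutation p = 1e-05 for both, the smallest that the resamples can give). Without the 2 arrays farthest from the median of Mst84Db, r was 0.72. Its rho was 0.51 with Mst84Dc and 0.47 with Mst84Dd, and it was 0.36 with Mst84Da. Whether these correlations differ from those of the other genes was not tested.

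**Figure D3:**
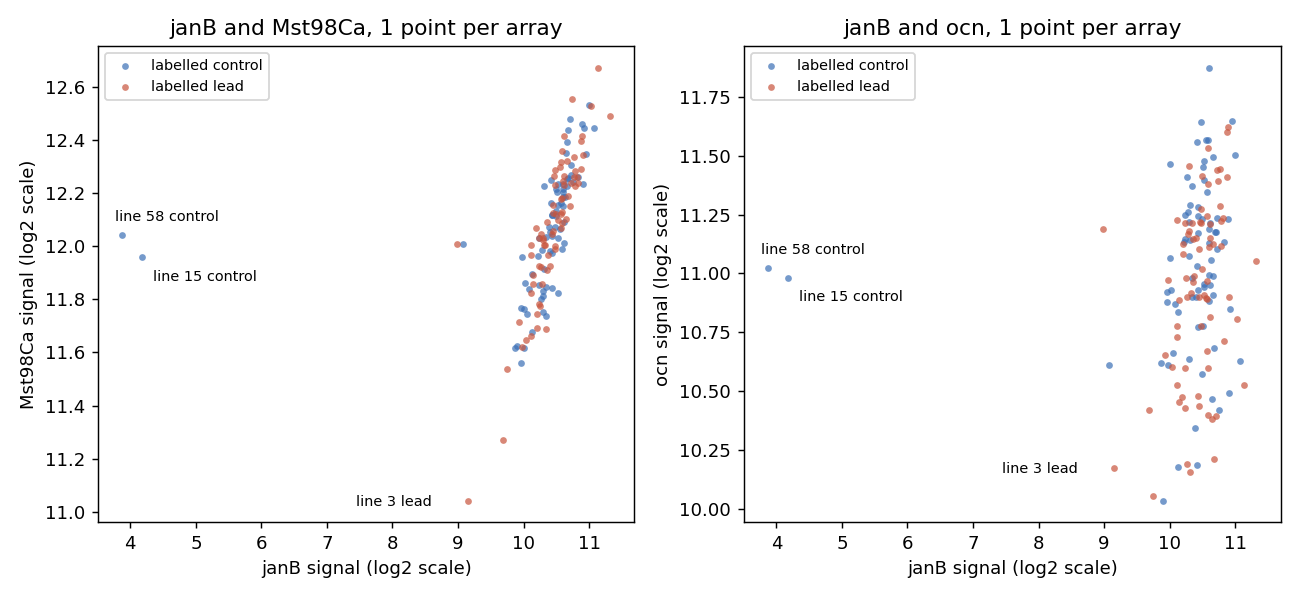
Signal of janB on the log2 scale (horizontal axes) against that of Mst98Ca (left, vertical axis) and of ocn (right, vertical axis), with 1 point per array. Blue points are labelled control and red points labelled lead. In Mst98Ca the main body of points forms a rising band (rho = 0.87), in ocn it forms a broad column (rho = 0.26), and the arrays of line 58 control and line 15 control stand to the far left at ordinary values of both genes.

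The co-variation was not limited to the labelled groups or to single arrays. Within the 75 arrays labelled control the median rho of the 45 pairs was 0.80, and within the 75 labelled lead it was also 0.80. Without the array of line 3 lead it was 0.80. Within the 76 arrays above 10 in the metallothionein gene MtnB it was 0.75, and within the 74 below it was 0.83.

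A sign of RNA quality and genes of other male tissues moved with the 10 genes. Over 90 relations computed between genes and array measures, Spearman's rho with the Actin 3' minus 5' difference was 0.46 to 0.72 for the 9 genes other than ocn and 0.21 for ocn. Pearson's r was 0.27 to 0.68 and 0.20. The rho values of the 9 genes had a permutation p of 1e-05, the smallest that the resamples can give, and that of ocn an adjusted p of 0.0192. Without the 2 arrays farthest in the Actin difference, r stayed between 0.19 and 0.67. With a linear fit on the Actin difference removed, the median rho of the 45 pairs was 0.72, with a range from 0.013 to 0.91, and that of the 9 pairs with ocn was 0.35. The part of RNA quality in the remaining co-variation was not tested.

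Other genes of the male germ line were given by lists. In the list of other spermatid genes, 35 of 44 genes were measured, by 41 probe sets, and its mean over the arrays had a rho of 0.75 to 0.95 with the 9 genes (permutation p = 1e-05 for each, the smallest that the resamples can give). It was highest for Mst98Ca and Mst98Cb, at 0.95 and 0.91, and 0.86 for janB. With ocn it had rho = 0.27 (r = 0.31, adjusted permutation p = 0.00146 and 0.000235). For the 10 measured genes of the meiotic arrest list, the rho of the 9 genes lay between 0.52 and 0.73, and for ocn it was 0.12 (adjusted permutation p = 0.201). Of the 10 probe sets in that list 5 lay above the median level of all probe sets, 5.42, and the lowest had a median of 2.87.

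The mean of vas, bam and bgcn, 3 genes of the early germ line, had rho from 0.38 to 0.73 with the 9 genes and -0.037 with ocn. Of these 3 probe sets only 1 lay above the median level of all probe sets, 5.42, and the lowest had a median of 2.84. How far each gene carried the correlation was not tested. The mean of 11 accessory gland genes, which are no germ cell genes, had rho from 0.52 to 0.65 with the 9 genes and 0.24 with ocn. It ran from 10.19 over a median of 11.20 to 11.80. The mean of the 3 ejaculatory duct and bulb genes had rho from 0.13 to 0.33, and that of the 12 female genes from -0.13 to 0.04. In whole males, fewer germ cells and less message per germ cell cannot be told apart.

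The genes most like each of the 10 were sought among all other probe sets by Spearman's rho over the 150 arrays, as a description. For 9 of the genes, between 462 and 1416 probe sets had a rho above 0.7. For ocn a single probe set had, that of Mst84Db. The 95th percentile of rho over all probe sets was 0.63 to 0.80 for the 9 genes and 0.26 for ocn.

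The closest companions of Mst98Ca were CG3330 at 0.962, S-Lap2, a leucyl aminopeptidase of sperm, at 0.961 and CG5762 at 0.959. For Mst98Cb, CG18662 was closest at 0.931, and S-Lap2 followed at 0.918. For dj the closest was Tim17b2, a gene related to a mitochondrial import translocase, at 0.922. For janB it was CG18449 at 0.910, and Prtl99C, a protamine-like protein of sperm chromatin, was at 0.887.

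For Mst84Dc and Mst87F the closest probe set was that of CR17567, at 0.925 and 0.948, followed by CG31820. CG31820 was first for Mst84Dd, at 0.922. Mst84Da was closest to CG4691 at 0.935, and Mst84Db to CG17376 at 0.877. After Mst84Db, ocn was closest to another probe set of CG17376, at 0.572, and to CG15482 at 0.551. Among all probe sets janB ranked 963rd for ocn, and ocn ranked 3772nd for janB.

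Genes beside the 10 on the chromosome arm did not all share their pattern. In the order of the RefSeq table of Release 6 plus ISO1 MT, djl, a relative of dj, and Mst84B follow dj, with rho of 0.87 and 0.86, and CG1979 precedes it with 0.79. Sodh1, a sorbitol dehydrogenase gene just beyond CG1979, had -0.30. Beside Mst84Da, MstProx had a rho of 0.052 and CG42650, beyond it, 0.77. Of the genes around janB and ocn, Axn, ZIPIC, Sry-beta and Sry-alpha had rho with janB between 0.087 and 0.20, and janA has no probe set named here.

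Some arrays stood apart in janB. On 2 of the 150 arrays janB lay more than 2 below its median, both labelled control. On line 58 control janB was 3.88, or -6.59 from its median, and on line 15 control it was 4.19, or -6.28. The next arrays were line 31 lead at 8.98, line 43 control at 9.08 and line 3 lead at 9.15, all more than 1 below the median, and after them line 210 lead at 9.68. The gap between the lowest pair and the next array was thus wider than the whole range of the others.

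The other 9 genes did not follow janB on these arrays. On line 58 control ocn was 11.02, or 0.016 above its median, and on line 15 control it was 10.98, or -0.025 from it. The other 8 genes lay between -0.31 and 0.065 of their medians on line 58 control, with dj the farthest at 6.77. On line 15 control they lay between -0.32 and -0.015, with Mst87F the farthest at 11.30.

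The lead arrays of the same lines had ordinary janB signals. Line 58 lead was at 10.11, or -0.36 from the median, and line 15 lead was at 10.60, or 0.13 above it. The fall of janB was therefore seen on 1 of the 2 arrays of each line. The Actin 3' minus 5' difference was 0.91 and 1.14 on the control arrays, below its median of 1.40. MtnB was 11.38 on line 58 control and 5.72 on line 15 control, so the arrays lay in different MtnB classes.

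On the 3 arrays with a milder fall the companions of janB among the 10 genes differed. On line 31 lead, where janB was -1.49 from its median, ocn was 0.18 above its median and the other genes lay between -0.15 and 0.20. On line 43 control, where janB was at -1.39, ocn was at -0.40 and the others between -0.36 and -0.071. On line 3 lead, where janB was at -1.32, every one of the 10 genes was low, with ocn at -0.83, dj at -0.71 and the Mst genes between -1.48 and -1.04.

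**Figure D4:**
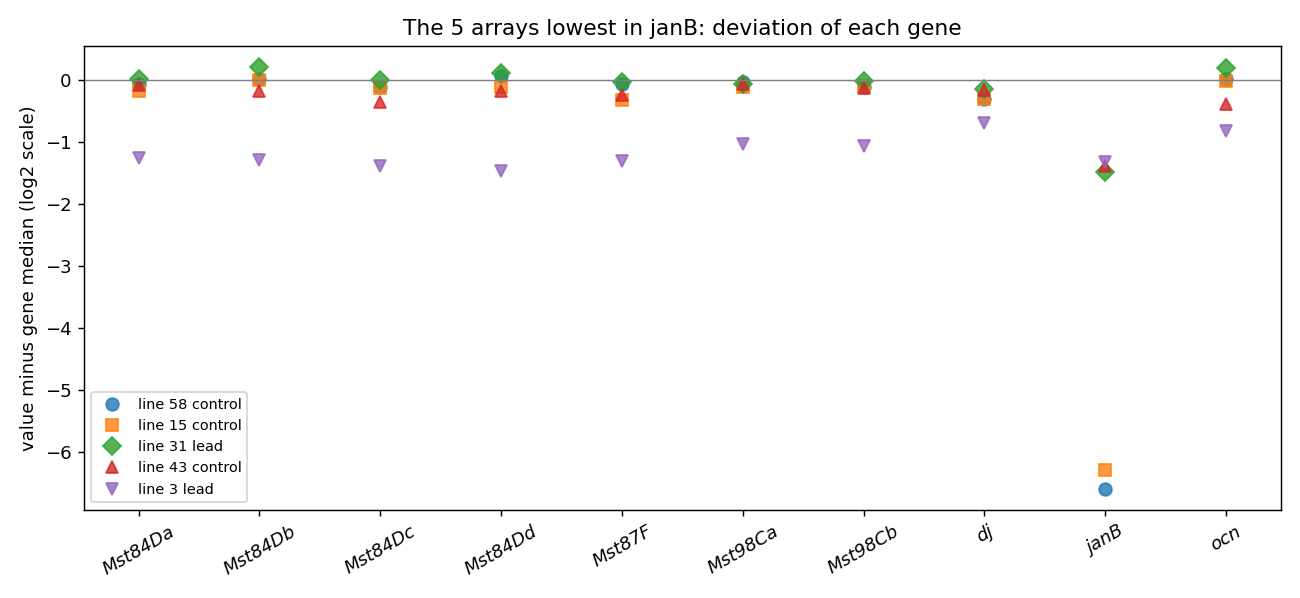
Signal minus the gene's own median on the log2 scale (vertical axis) for the 10 genes (horizontal axis) on the 5 arrays lowest in janB, each with its own symbol. On line 58 control and line 15 control janB alone falls, to -6.59 and -6.28, while on line 3 lead all 10 genes are low, from -0.71 in dj to -1.48 in Mst84Dd.

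Few other probe sets fell with janB on both arrays. On line 58 control 17 probe sets (0.0906%) lay more than 2 below their median, and on line 15 control 43 did (0.229%). Both lists held 13 probe sets (0.0693%), which is 76.5% of the first and 30.2% of the second. A pair of arrays shared a median of 2 such probe sets over the 11175 pairs, with a 95th percentile of 14 and a highest count of 122. With the diet means removed, the correlation of these 2 arrays over all probe sets was 0.401, the 642nd highest of 11175 pairs. Whether they share material or handling was not tested.

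The 12 other probe sets that fell on both arrays included no other of the 10 genes and came from several chromosomes. Mal-B1, a maltase, had a mean deviation of -3.77. Acbp3, an acyl-CoA binding protein, and CG14500 were both at -3.69. Both probe sets of Rnf11, a ring finger gene on chromosome 4, were low, at -3.54 and -3.44, and they were also low on line 58 lead and on line 44 control. CG15263 was at -3.20, CG7551 at -2.92, CG32984 at -2.32 and CG31807 at -2.27.

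Most of these probe sets were also low on further arrays. CG15263 lay more than 2 below its median on 23 arrays and CG14500 on 19. Only 4 of the 13 probe sets were that low on these 2 arrays alone, those of janB, CG7551, CG31807 and an unnamed one. On line 58 control 37 probe sets lay more than 2 above their median, and on line 15 control 139 did. Both lists held 17 of the 18769 probe sets. A pair of arrays shared a median of 2 such probe sets, with a 95th percentile of 15 and a highest count of 96. Among the 17, CG10177 had the largest mean deviation, 4.73, and lay more than 2 above its median on 52 arrays. NimC1, a receptor of blood cells, was at 2.61, and CG17944, the neighbour of Mst84Dd, at 2.38. Part of this pattern was also seen on line 31 lead and line 43 control. There CG10177 was at 4.43 and 4.23, Ser6 at 2.81 and 3.94, and CG32984 at -1.93 and -1.91. CG17944 was at 0.20 and 0.12, and Mal-B1 at -0.42 and -0.074. On line 3 lead CG10177 was at -0.24. On line 58 lead and line 15 lead, where janB was ordinary, CG10177 was at -0.11 and 3.76. Ser6 lay more than 2 above its median on 14 arrays. Genes next to janB on the arm stayed near their medians on line 58 control and line 15 control. ZIPIC was at 0.18 and -0.21, Axn at -0.33 and -0.23 and Sry-beta at -0.000354 and -0.34.

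The Mst genes had extremes of their own, on other arrays. The mean deviation of the 7 Mst genes was -1.27 on line 3 lead, -0.88 on line 210 lead and -0.85 on line 206 lead. The control arrays of these lines were at -0.44, -0.33 and 0.26. The median correlation with the other arrays was 0.972, 0.973 and 0.981 on the lead arrays of lines 3, 210 and 206, where its median over all arrays was 0.982. On line 3 lead 38 of 41 probe sets of other spermatid genes were below their median, with a median deviation of -0.84, as were 8 of 10 meiotic arrest genes, at -0.40. All 11 accessory gland genes were below their median there as well, at -0.65, and the Actin difference was 1.03. On line 210 lead only 4 of the 11 accessory gland genes were below, against 37 of 41 spermatid probe sets, whose median deviation was -0.62. All 3 ejaculatory duct and bulb genes were below their medians there too, with a median deviation of -1.04 and a lowest of -2.42.

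At the top, the 7 Mst genes were 0.66 above their medians on average on line 97 lead, 0.54 on line 27 control and 0.53 on line 84 lead. The median correlation of these arrays with the other arrays was 0.974, 0.974 and 0.973, also below the median of 0.982. Line 97 lead was the highest array for 5 of the 10 genes, janB included at 11.32, while ocn was 0.047 above its median. On line 84 lead dj was 0.96 above its median and ocn -0.48 from it. The lowest array of ocn was line 50 control, at 10.04.

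The last comparison was between arrays above and below 10 in MtnB, a metallothionein gene whose small protein binds metals. These classes are defined by a measured value and are not groups of the study. No array lay between 8.99 and 11.02, 76 arrays lay above, 36 of them labelled control and 40 labelled lead, and 74 below, 39 labelled control and 35 labelled lead. None of the 10 genes passed the test between the classes. In limma, with diet in the model, 0 of the 10 genes passed an adjusted p under 0.05, against a background of 28.7% of probe sets, of which 11.7% were higher above 10 and 17% lower. Before adjustment 7151 probe sets and 0 of the 10 genes had a p under 0.05. With line as a block, 0 of the 10 genes and 8.76% of probe sets were called, and by a rank-sum test 0 of the 10 and 30.1%.

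The differences, above minus below, ran from -0.07 for dj to 0.06 for Mst84Dd, with a median of 0.0025, where the median over all probe sets was -0.0178. The signal of dj ran from 6.30 over a median of 7.05 to 8.002 above 10 and from 6.10 over 7.11 to 8.06 below. Its difference was -0.069 ± 0.059 (SE). Its 95% interval reached from -0.19 to 0.05, and limma's adjusted p was 0.415. The signal of Mst98Cb ran from 9.39 over 10.06 to 10.73 above and from 9.05 over 10.17 to 10.80 below, a difference of -0.067 with an interval from -0.17 to 0.03. In both genes the classes overlapped over nearly their whole range.

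For ocn the medians were 11.01 in both classes and the difference was 0.02, with an interval from -0.10 to 0.14. For janB the medians were 10.45 above and 10.49 below, with a difference of -0.0087 and an interval from -0.27 to 0.25, the widest of the 10. The intervals of the other genes lay within 0.19 of 0. Adjusted p values ran from 0.340 for Mst98Cb to 0.971 for janB.

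**Figure D5:**
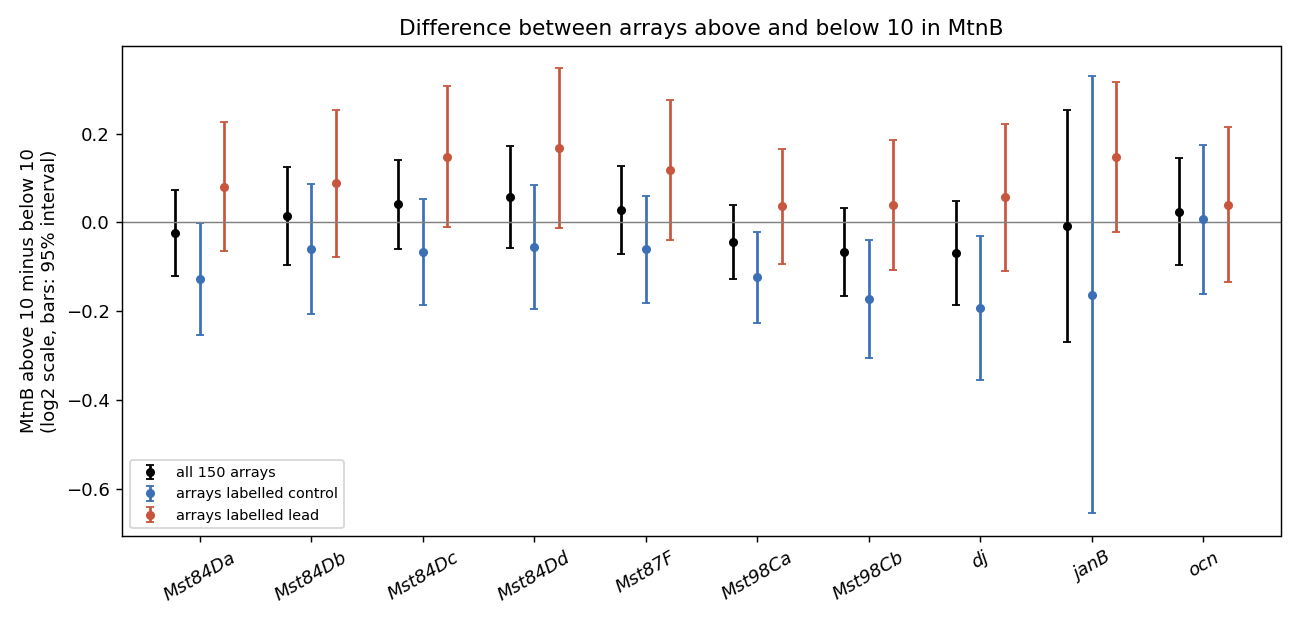
Difference in signal on the log2 scale (vertical axis) between arrays above and below 10 in MtnB for the 10 genes (horizontal axis), with points at the fitted difference and bars as 95% intervals, for all 150 arrays (black), the arrays labelled control (blue) and those labelled lead (red). The black intervals all include 0. The blue points lie below 0 in 9 genes and the red points above 0 in all 10, and the difference between them was called in no gene.

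Within the labelled diets the differences had opposite signs in most of the 10 genes. On the arrays labelled control they ran from -0.19 for dj to 0.0072 for ocn, and 1 of the 10 genes was called, against a background of 24.3%. This was Mst98Cb, which ran from 9.46 over a median of 10.05 to 10.50 on the 36 arrays above 10 and from 9.59 over 10.19 to 10.80 on the 39 below. The ranges overlapped, and the difference was -0.17 ± 0.066 (SE), with an adjusted p of 0.0462 in limma. Mst84Da, Mst98Ca and dj had an unadjusted p under 0.05 as well, and their adjusted p values were 0.135, 0.0661 and 0.0727.

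On the arrays labelled lead the differences ran from 0.036 for Mst98Ca to 0.17 for Mst84Dd, and 0 of the 10 genes was called, against a background of 12.4%. None had an unadjusted p under 0.05. There Mst98Cb ran from 9.39 over 10.09 to 10.73 above 10 and from 9.05 over 10.16 to 10.77 below, a difference of 0.039.

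The difference between the diets in this contrast was fitted as an interaction, chosen after seeing these values. It was called in 0 of the 10 genes and in 0% of probe sets. It ran from 0.03 for ocn to 0.31 for janB, with a median of 0.21 over the 10 genes and 0.0035 over all probe sets. The shift was not particular to the 10 genes. Accessory gland genes had a median of 0.24, with 0 of 11 below 0. Other spermatid probe sets had a median of 0.12, with 4 of 41 below 0, and meiotic arrest genes one of 0.11, with 0 of 10 below 0. Unadjusted p values were under 0.05 in 1645 probe sets and in 4 of the 10 genes, namely Mst84Da at 0.21, Mst84Dc at 0.22, Mst98Cb at 0.21 and dj at 0.25. Adjusted p values of the 10 genes lay between 0.554 and 0.932 in limma.

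The median Actin difference was lower above 10 in MtnB on both diets. Its median was 1.32 on the control arrays above 10 in MtnB and 1.81 on those below, and 1.41 and 1.49 on the lead arrays. With the Actin difference as a covariate, also chosen after seeing the data, 1 of the 10 genes was called over all arrays, against a background of 26.6%. This was Mst84Dc, at 0.11 with an adjusted p of 0.0472 in limma. It was 0.04 without the covariate, with an adjusted p of 0.604. With the covariate the differences of the 10 genes were all above 0, from 0.0075 for Mst98Cb to 0.13 for Mst84Dd. Without it they ran from -0.07 to 0.06. The part of RNA quality in these differences was not tested.

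Some other genes of the male germ line and of the accessory gland were called between the MtnB classes, where the share over all probe sets was 28.7%. Among the other spermatid genes 1 probe set was higher above 10 and 7 were lower, of 41, a smaller share than that background, with a median difference of -0.061. The lower ones included m-cup at -0.13, f-cup at -0.12 and Tektin-A, a gene of a filament protein of cilia and flagella, at -0.15. The dynein gene kl-2 had 1 probe set higher, at 0.065, and another lower, at -0.080.

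Of the 10 measured meiotic arrest genes, mia was higher above 10, at 0.40, and sa and nht were lower, at -0.24 and -0.21, a share near the background of 28.7%. These 3 encode testis forms of general transcription factor subunits. Of the 3 early germ line genes 1 was called, a share near that background as well. This was vas, an RNA helicase gene, which was lower, at -0.067. Of the 11 accessory gland genes, 7 were lower and 0 higher, with a median of -0.21, where 17% of all probe sets were lower. The difference was -0.46 for Acp26Aa, which encodes ovulin, -0.36 for Acp63F and -0.44 for Acp76A. The mean of this list had a median of 11.02 over the arrays above 10 and 11.34 over those below. Its part in the values of the 10 genes was not tested.

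Between the labelled diets 0 genes of any of these lists were called, and in spread 1 of the 41 probe sets of other spermatid genes and 4 of the 12 female genes were, against the background of 1.16%. The spermatid gene was Tpl94D, a transition protein-like gene of spermatid chromatin, with a log2 variance ratio of -1.31 and an adjusted p of 0.0167 by the Pitman-Morgan test, narrower among the lead arrays. The 4 female genes, the eggshell genes Cp19, Cp16, Cp18 and Vm32E, were wider among the lead arrays, with log2 variance ratios of 3.73, 3.57, 2.11 and 1.39. Their adjusted p values ran from 1.94e-19 for Cp19 to 0.0079 for Vm32E. In the rank form of the test 0 of 18769 probe sets were called, so none of these calls held there. The mean of the 12 female genes had a median of 3.95 and a highest value of 10.25 among the lead arrays. Among the control arrays these were 3.88 and 8.61.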

How the data were processed

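Expression was measured on 150 Affymetrix arrays, 1 per line and labelled diet. The deposited table holds 18952 probe sets in log2 values, a scale inferred from their range of 1.93 to 14.04. The authors' summarisation and normalization were not given in the sources used here. The deposited values were used unchanged, all 150 columns matched a sample, and 183 array controls were left out. Of the 18769 probe sets tested, 13646 had exactly 1 symbol in the platform table. No coordinates or sequences are printed, since no genome of the design's build was used here.

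Fits ran over all 18769 probe sets with limma 3.58.1 in R 4.3.3, with Benjamini-Hochberg adjustment and a threshold of 0.05: diet with line as a block, line as an F-test, and arrays above against below 10 in MtnB with diet in the model. The pairing by line comes from the labels: each line has 1 control and 1 lead array. In the 10 genes these arrays correlated over lines at r from -0.042 to 0.11. Spread was compared with the Pitman-Morgan test. These tests recovered known changes in simulated normal values. The simulated SDs were capped, so arrays as far off as those low in janB were not simulated. The recovery thus does not bear on the spread call of janB. Correlations used 100000 permutations, in Python 3.11.15. Arrays low in janB were those more than 2 below its median. The genes, the lists (meiotic arrest, other spermatid, early germ line, accessory gland, ejaculatory duct and bulb, female) and the tests were chosen with earlier results of these data known. Named companions were the 3 probe sets of highest rho for each gene, and named fallen genes up to 10 by mean deviation, 1 of which is not reported here. With 1 vial per line and diet, p-values rest on the variation among lines, and the number of arrays limits the precision. Alternatives were other normalizations, array weights, a signal filter, rank tests and left-out lines.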

Additional observations from a re-analysis of the deposited data

How the results depend on the processing

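Between the labelled diets 0 of the 10 genes passed in all 9 alternatives, and the fit with no replicate block also gave 0, so pairing by line changed no call there. Of 90 alternative values for diet 11 changed sign and 0 passed, and of 70 for the line effect 0 passed. Between the MtnB classes 0 genes passed with the replicate block by line, where 1645 probe sets were called (8.76%), against 5384 without it, and the differences of the 10 genes ran from -0.06 to 0.13. Of 130 alternative values for MtnB 23 changed sign and 2 passed: 1 gene on the arrays labelled control alone (Mst98Cb, -0.17) and 1 with the Actin difference as a covariate (Mst84Dc, 0.11), the latter alternative being chosen after seeing the data, as were those without line 3, the interaction, and the removal of the Actin fit from the co-variation. The interaction passed in 0 of its 30 alternative values. Without lines 58 and 15 its unadjusted p was under 0.05 in 8 of the 10 genes, against 4 with them. Over all 18769 probe sets the count was 2007 without these lines, against 1645 with them. The 10 genes vary together, ocn less than the rest, and are not separate tests, and the cause was not tested. The count of 1 gene called for spread became 0 in the rank form, where janB had a correlation of 0.034, and 0 without lines 58 and 15, where its log2 variance ratio was 0.51. That alternative leaves out the arrays on which the ratio rests. The median rho of the 45 pairs lay between 0.72 and 0.83 over the alternatives and the subsets of arrays run. The count of 2 arrays low in janB became 5 with a limit of 1 below the median and was 2 in the other 3 alternatives. Leaving out single replicates was not run, since each group holds 75 arrays.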
